A study of Mus musculus with 14 samples.

Results

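The Fgf5 and Otx2 loci were examined as 2 genomic windows in the mouse build mm9, chr5:98610000-98720000 around Fgf5, and chr14:49200000-49350000 around Otx2. The windows span 110 and 150 kb. Members were all 200-bp bins and all peaks in them, chosen by position alone. CpG counts were present in 405 bins of the Fgf5 window and 615 of the Otx2 window, or 1020 of 7282466 bins in the whole series, and 26 and 59 peaks from 4 peak lists overlapped them.

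Fgf5 encodes a fibroblast growth factor that is low in naive embryonic stem cells (ESCs) and is induced in the primed pluripotent cells of the epiblast. Otx2 encodes a homeodomain transcription factor that directs the transition from naive to primed pluripotency and later patterns the anterior brain. Both genes are known for long-range enhancers. Enhancers commonly carry H3K4me1 before they are switched on, and gain H3K27ac once in use. Methylated cytosine in CpG dinucleotides (5mC) is generally low at active enhancers.

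The data came from ChIP-bisulfite sequencing (ChIP-BS-seq), in which DNA bound to a modified histone is isolated and then bisulfite-treated, so that 5mC is read only on fragments that carried the mark. All cells derived from the R1 mouse ESC line, kept with LIF and 2i, the pair of MEK and GSK3 inhibitors PD0325901 and CHIR99021. The ESC group was grown for 2 days without 2i. The retinoic acid (RA) group was differentiated for 4 days with 1 µM retinoic acid and without LIF, and the XEN group, differentiated towards extraembryonic endoderm, was grown for 9 days with retinoic acid at 0.1 µM together with Activin A. Each mark had 1 library in ESCs, 1 in RA cells and 2 replicates in XEN cells. No label says whether the replicates came from separate cultures, so p-values that rest on them may measure technical spread only. R1 is 1 cell line, and its identity could not be checked against marker genes here.

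The 8 libraries held between 12147115 and 58803653 CpG counts. The XEN libraries went against their labels: over 811510 well-covered bins, both libraries labelled H3K4me1 resembled RA H3K27ac (Pearson's r of log2 occupancy 0.57 and 0.58, across bins of shared libraries) more than RA H3K4me1 (r = 0.09 and 0.08). Those labelled H3K27ac resembled RA H3K4me1 (r = 0.62 and 0.67) more than RA H3K27ac (r = 0.20 and 0.19). The names of the deposited files also give these marks the other way round. The labels were followed, each XEN library is called by its label, and comparisons are given by label and by file name.

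Sequence upstream of the genes differed in CpG content, which sets how many CpG counts a fragment can give. The 250 bases before the RefSeq start (build GRCm38.p6, not placed on the build of the files) are shown for Fgf5, on the plus strand, and for the Otx2 starts with the most and the fewest CpGs, on the minus strand, with CpGs in capitals.
Fgf5: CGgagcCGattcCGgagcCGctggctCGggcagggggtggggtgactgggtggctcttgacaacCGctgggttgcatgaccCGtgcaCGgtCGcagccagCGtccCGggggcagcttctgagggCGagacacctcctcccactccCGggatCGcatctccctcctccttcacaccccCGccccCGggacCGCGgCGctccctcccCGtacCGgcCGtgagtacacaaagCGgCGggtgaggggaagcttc
Otx2, start with the most CpGs: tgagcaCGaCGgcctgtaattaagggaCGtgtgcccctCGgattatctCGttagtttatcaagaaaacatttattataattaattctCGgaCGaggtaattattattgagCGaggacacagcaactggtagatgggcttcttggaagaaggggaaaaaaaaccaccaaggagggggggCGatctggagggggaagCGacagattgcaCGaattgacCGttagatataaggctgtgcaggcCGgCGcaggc
Otx2, start with the fewest CpGs: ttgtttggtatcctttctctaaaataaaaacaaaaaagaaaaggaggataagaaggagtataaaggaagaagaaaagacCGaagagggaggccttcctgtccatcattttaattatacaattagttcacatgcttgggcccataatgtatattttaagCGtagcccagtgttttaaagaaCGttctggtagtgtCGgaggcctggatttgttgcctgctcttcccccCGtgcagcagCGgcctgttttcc
The Fgf5 stretch held 24 CpGs, a number reached by 12.0% of 32851 RefSeq promoters, whose median was 6. The 4 Otx2 starts held 6, 8, 14 and 9 CpGs.

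At the Fgf5 locus both marks were lower in RA cells than in ESCs by a modest amount. Occupancy, the CpG counts of the window per 1000000 CpG counts of the library (CPM), was 68.9 CPM in ESC and 54.3 CPM in RA for H3K4me1. For H3K27ac it was 37.7 CPM in ESC and 31.6 CPM in RA. The RA level was therefore 0.789 of the ESC level for H3K4me1 (95% exact counting interval 0.751 to 0.829) and 0.837 for H3K27ac (0.769 to 0.910). With 1 library per state these intervals cover counting error only and compare libraries, not conditions.

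At the Otx2 locus the fall was larger, above all in H3K27ac. H3K27ac occupancy was 228 CPM in ESC and 82.2 CPM in RA, a 2.78-fold lower level, or 0.360 of the ESC level (0.344 to 0.376). H3K4me1 was 281 CPM in ESC and 182 CPM in RA, or 0.647 of the ESC level (0.631 to 0.664). Among 11115 genome tiles of the same 150 kb with at least 500 counts in both libraries, 1.35% had a lower RA-to-ESC ratio of H3K27ac than Otx2, and 17.3% of 11555 had a lower ratio of H3K4me1. For Fgf5, among tiles of 110 kb, these shares were 30.2% of 12818 and 31.5% of 14071. Tiles were not matched for ESC occupancy. In ESC, Otx2 lay above 94.3% of its tiles for H3K27ac and 97.5% for H3K4me1, and Fgf5 above 39.2% and 62.1%.

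**Figure D1:**
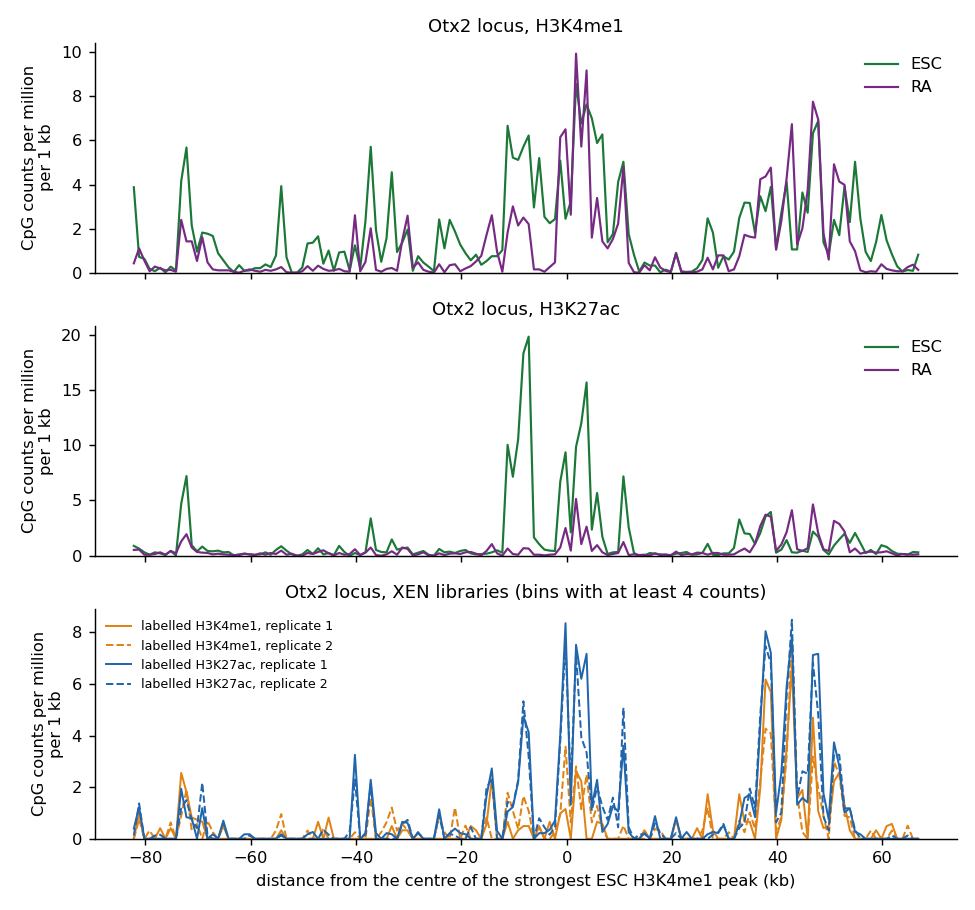
Occupancy along the Otx2 window, in CPM per 1 kb against distance in kb from the centre of the strongest ESC H3K4me1 peak, with 1 line per library. The highest ESC H3K27ac value (19.8) lies left of the centre, where the RA line is close to 0 (the second long element lies on the right).

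The fall at Otx2 was uneven along the locus. Merged runs of overlapping peaks from the 4 lists, here called elements, numbered 20 at Otx2, and 2 long ones held most counts. Elements that crossed a window edge were counted whole. The first long element, chr14:49264882-49295825, spans 30.9 kb. Its H3K27ac occupancy was 148 CPM in ESC and 20.8 CPM in RA, 7.11-fold lower, with an RA level 0.141 of that in ESC (0.129 to 0.152). Its H3K4me1 occupancy was 116 CPM in ESC and 76.0 CPM in RA, 0.653 of the ESC level (0.627 to 0.680).

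The second element, chr14:49308507-49340370, spans 31.9 kb, and its summed occupancy was similar in ESC and RA for both marks. Its H3K27ac occupancy was 38.0 CPM in ESC and 40.6 CPM in RA, a ratio of 1.07 (0.988 to 1.16). Its H3K4me1 occupancy was 79.1 CPM in ESC and 75.9 CPM in RA, a ratio of 0.960 (0.919 to 1.00). Within it the changes went both ways. H3K27ac was 3.56 CPM in ESC and 10.5 CPM in RA in the tile chr14:49325001-49330000, but 10.4 and 5.14 CPM in chr14:49315001-49320000. H3K4me1 was 14.7 CPM in ESC and 6.51 CPM in RA in chr14:49335001-49340000. The counting intervals of the summed H3K27ac ratios of the neighbouring elements did not overlap.

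In the ESC H3K27ac list 11 peaks overlapped the Otx2 window and covered 47.2 kb, and in the RA list 9 peaks covered 22.7 kb. The strongest ESC H3K27ac peak of the window, chr14:49269924-49278604, ranked 1941 of 100469 in its list. Over this peak H3K27ac was 69.4 CPM in ESC and 2.48 CPM in RA, on 2263 and 80 counts. The stretch was chosen through ESC, where the mark was high, and no RA H3K27ac peak lay in it, so these values are a description. H3K4me1 over the same bases was 40.5 CPM in ESC and 12.5 CPM in RA.

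Most of the smaller Otx2 elements had less H3K4me1 in RA. Past a 2-fold change, 14 of 20 elements were lower and 0 higher in RA for H3K4me1, beside 34.1% lower and 36.1% higher over all 181717 elements with at least 30 counts. Of these 14, 10 had an H3K4me1 peak in ESC and none in RA, so they were members through the state where the mark was high. For H3K27ac 7 of 14 were lower and 0 higher, beside 22.7% lower and 20.3% higher of 138627. Of these 7, 2 had an H3K27ac peak in ESC and none in RA, so the same limit holds for them. In tiles of 5 kb, which do not depend on peaks, 16 of 30 Otx2 tiles were lower and 1 higher for H3K4me1, beside 26.7% and 30.4% of all tiles, and 14 were lower and 1 higher for H3K27ac, beside 16.4% and 11.7%. The 4 elements with the largest H3K4me1 falls, all with a peak in ESC only, are given as a description. They were chr14:49227412-49229501 (4.76 CPM in ESC, 0.339 CPM in RA, 14.0-fold lower), chr14:49215530-49216529 (11.6-fold), chr14:49236733-49237732 (9.95-fold, on 62 and 5 counts) and chr14:49340929-49344526 (9.20-fold). In the element chr14:49209033-49212454 both marks were lower, with H3K27ac at 13.2 CPM in ESC and 4.33 CPM in RA and H3K4me1 at 12.8 and 5.64 CPM. Peaks of both marks were still called there in RA. The element chr14:49248171-49253439 had H3K4me1 at 10.4 CPM in ESC and 4.71 CPM in RA.

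**Figure D2:**
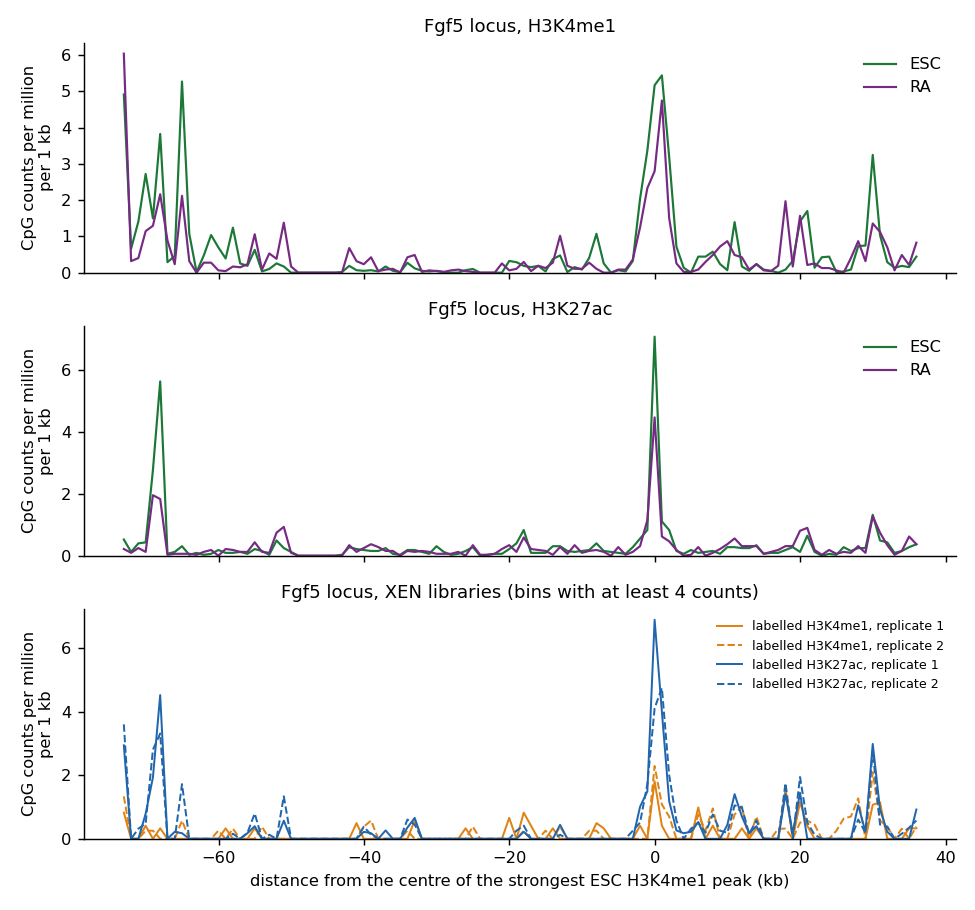
Occupancy along the Fgf5 window, in CPM per 1 kb against distance in kb from the centre of the strongest ESC H3K4me1 peak, with 1 line per library. The central H3K27ac summit is 7.06 in ESC and 4.46 in RA, and small RA peaks of H3K4me1 appear on both sides of it.

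At Fgf5 elements moved both ways. The strongest, chr5:98680342-98686719, is 1 ESC H3K4me1 peak of 6.38 kb that was called as 2 peaks in RA. Its H3K4me1 occupancy was 20.3 CPM in ESC and 13.2 CPM in RA, 0.654 of the ESC level (0.593 to 0.721). Its H3K27ac occupancy was 10.8 CPM in ESC and 7.31 CPM in RA, 0.676 of the ESC level (0.571 to 0.800), and the ESC list held a peak there while the RA list held none.

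The element chr5:98615001-98616507 had H3K27ac at 5.65 CPM in ESC and 1.86 CPM in RA, 3.04-fold lower, while its H3K4me1 was 4.00 and 2.93 CPM. It held an H3K27ac peak in ESC and none in RA, so the fall in that mark is a description. H3K4me1 at chr5:98617691-98619696 was 6.73 CPM in ESC and 2.63 CPM in RA, and at chr5:98608163-98611225 it was 12.0 and 9.98 CPM. The latter element starts before the window edge, and elements were grouped by window without being assigned to a gene. The largest falls of H3K4me1 were 6.66-fold at chr5:98624885-98625884, 3.60-fold at chr5:98621481-98624014 and 3.28-fold at chr5:98674591-98675590.

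The elements with the largest H3K4me1 folds in either direction had an H3K4me1 peak in 1 state only, so they were members through the state where the mark was high, and their folds and intervals are a description. Higher values in RA were seen at chr5:98700835-98702354, where H3K4me1 had 8 counts in ESC and 101 in RA, a 15.7-fold higher level (7.69 to 37.4). H3K4me1 was also higher at chr5:98643156-98644673 (7 and 30 counts, 5.34-fold) and at chr5:98631440-98632980 (20 and 78 counts, 4.86-fold). H3K27ac was 4.04-fold higher at chr5:98702742-98704080, on 7 and 28 counts. Of 15 Fgf5 elements, 4 were over 2-fold higher and 5 over 2-fold lower in RA for H3K4me1, beside 36.1% higher and 34.1% lower of all elements. Of 8 with enough counts 2 were higher and 1 lower for H3K27ac, beside 20.3% and 22.7%. These shares were near those of all elements.

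Pooled over each window, 5mC was higher in the RA than in the ESC library at both loci and under both marks. For Fgf5 H3K27ac the direction depended on which bins were kept. In the Fgf5 window 5mC was 32.5% in ESC H3K4me1 (exact 95% interval 31.0 to 34.0) and 47.7% in RA H3K4me1 (45.7 to 49.7). Under H3K27ac it was 33.1% in ESC (30.5 to 35.8) and 40.7% in RA (37.7 to 43.8). In the Otx2 window it was 27.7% in ESC H3K4me1 on 16538 counts and 42.7% in RA (41.7 to 43.8). Under H3K27ac the Otx2 window held 13.7% in ESC (13.0 to 14.5) and 41.2% in RA (39.4 to 43.1), a rise of 27.5 percentage points. Within H3K27ac peaks of either state it held 8.18% in ESC and 35.5% in RA, and outside them 54.6% and 61.3%. These pooled values do not compare the same bins. In the 6 Otx2 bins with at least 30 H3K27ac counts in both libraries the median difference was 2.12 points. In the 20 bins with at least 20 counts it was 11.2 points.

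The pooled H3K27ac rise at Otx2 exceeded that of 99.5% of tiles of the same length, whose median was 2.15 points. These tiles were not matched for ESC occupancy or 5mC. The rises under H3K4me1, 15.2 points at Fgf5 and 15.1 points at Otx2, exceeded 64.2% and 65.1% of tiles. The Fgf5 rise under H3K27ac, 7.60 points, exceeded 72.4% of tiles, but its size and direction depended on which bins were kept. In bins with at least 4 counts 5mC was 22.4% in ESC and 37.3% in RA, while in bins with at least 30 counts, 10 in ESC and 3 in RA, it was 1.08% and 0.901% over their summed counts, a difference of -0.18 points. Within H3K27ac peaks of either state 5mC of the Fgf5 window was 7.29% in ESC and 15.5% in RA, and outside them 50.4% and 50.1%.

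**Figure D3:**
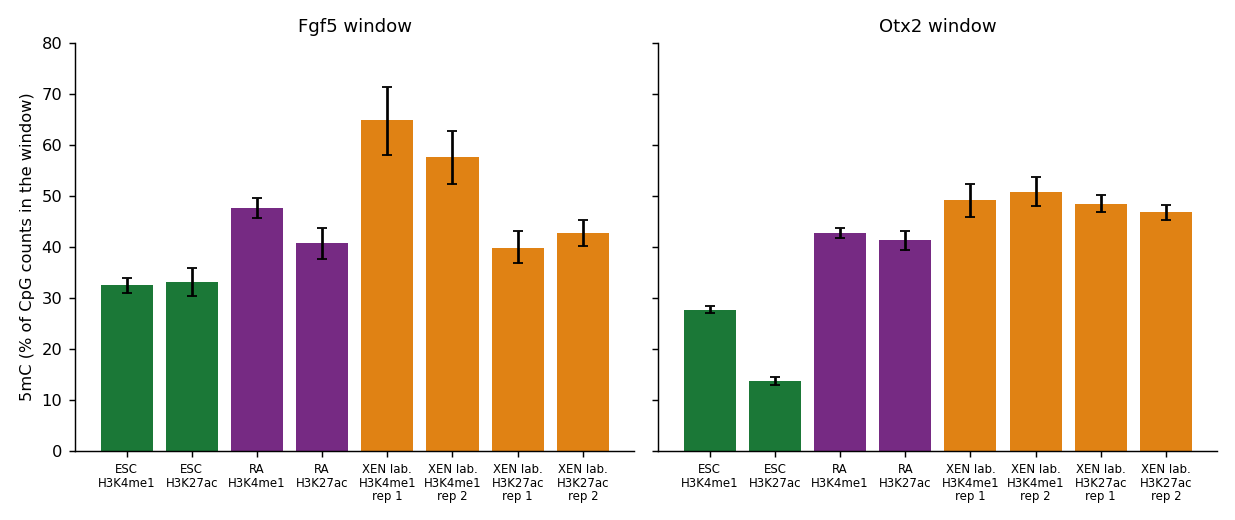
5mC of each window in each library, as percent of CpG counts, with exact 95% binomial intervals that cover counting error only. The Otx2 window under ESC H3K27ac is the lowest bar (13.7%), and the Fgf5 window in the first XEN library labelled H3K4me1 is the highest (64.9%).

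Bins were compared between RA and ESC by Fisher's exact test where both libraries had at least 30 counts, with Benjamini-Hochberg adjustment over all bins of the genome in peaks. For H3K4me1, 48 of 74 Otx2 bins were higher and 2 lower in RA at adjusted p under 0.05, and 4 of 15 Fgf5 bins were higher and 0 lower. Over the genome 47.8% were higher and 1.84% lower. The median difference was 21.8 points at Otx2, 14.8 points at Fgf5 and 17.4 points over all bins. Each test compared 1 library with 1.

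The bins with the largest rise at Otx2 lay in the first long element and in the element chr14:49243564-49247376. At chr14:49272201-49272400, 5mC under H3K4me1 was 2.47% of 81 counts in ESC (0.30 to 8.64) and 76.7% of 60 counts in RA (64.0 to 86.6), with Fisher's exact adjusted p = 2.31e-19. At chr14:49272601-49272800 it was 3.90% of 77 counts and 64.5% of 31 (adjusted p = 1.04e-09). At chr14:49245401-49245600 it was 6.49% of 77 counts and 63.3% of 30 (adjusted p = 3.99e-08).

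The 2 Otx2 bins that fell were chr14:49242401-49242600, with 85.3% of 34 counts in ESC and 44.4% of 54 in RA (adjusted p = 0.000567), and chr14:49319801-49320000, with 3.33% of 30 counts in RA, -23.7 points from its level on 37 counts in ESC (adjusted p = 0.0365). Bins of the 2 long elements started from different levels. In the first, 33 of 34 tested bins were under 20% in ESC and 9 in RA, and 28 rose. In the second, 14 of 33 were under 20% in ESC and 8 in RA, with 16 higher and 1 lower.

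**Figure D4:**
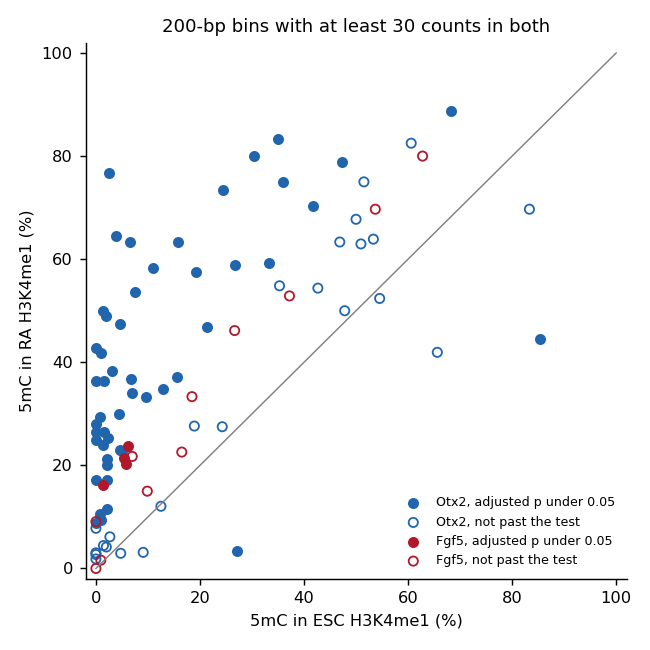
5mC of single 200-bp bins under H3K4me1, ESC on the x axis and RA on the y axis, both in percent, with the line of equality. Filled points passed the test (48 higher and 2 lower at Otx2, 4 higher at Fgf5), and most lie above the line near the left edge.

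At Fgf5 the 3 called bins with the largest rise were chr5:98683801-98684000 (6.19% of 97 counts in ESC, 23.7% of 76 in RA, adjusted p = 0.00456), chr5:98610401-98610600 (5.36% of 112, 21.5% of 79, adjusted p = 0.0037) and chr5:98682801-98683000 (1.39% of 72, 16.1% of 31, adjusted p = 0.0213). The bin with the most RA H3K4me1 counts, chr5:98610201-98610400, had 5.81% of 86 counts in ESC and 20.2% of 109 in RA (adjusted p = 0.0146). The bin with the most ESC H3K4me1 counts, chr5:98684201-98684400, had 37.2% of 129 and 52.9% of 87, with adjusted p = 0.0515, which missed the threshold.

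Under H3K27ac few bins had 30 counts in both states, 6 at Otx2 and 3 at Fgf5. Of these 1 and 0 were called higher, and none lower, beside 13.8% higher and 1.06% lower over the genome. The called bin, chr14:49320601-49320800, lies in the second long element and had 1.30% of 77 counts in ESC and 20.3% of 64 in RA (adjusted p = 0.00285). Under H3K4me1 it had 2.08% of 96 and 21.2% of 132. The bin with the most H3K27ac counts in ESC, chr14:49286201-49286400, stayed low at 0.350% of 286 counts in ESC and 2.00% of 50 in RA, while under H3K4me1 it was 0.800% of 125 and 10.5% of 181. The bin with the most RA H3K27ac counts, chr14:49284601-49284800, had 0.763% of 131 counts in ESC and 1.45% of 69 in RA. The bin with the most H3K4me1 counts in both states, chr14:49330801-49331000, had 41.8% of 249 and 70.3% of 209.

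Whole elements were compared as well, a choice made after the data were seen because few bins were covered under H3K27ac. Each test compared 1 library with 1, and its p-value covers counting error only. In the first long Otx2 element 5mC under H3K27ac was 2.95% in ESC and 21.2% in RA (Fisher's exact adjusted p = 1.23e-56), and under H3K4me1 12.5% and 30.9% (adjusted p = 9.68e-108). In the second it was 25.4% and 41.8% under H3K27ac (adjusted p = 4.57e-17) and 31.3% and 47.3% under H3K4me1 (adjusted p = 1.46e-47). In the strongest Fgf5 element it was 21.4% and 37.4% under H3K4me1 (adjusted p = 6.49e-12), and 8.81% and 11.4% under H3K27ac (adjusted p = 0.493). For H3K4me1, 9 of 11 Otx2 and 4 of 8 Fgf5 elements were higher and 0 lower, beside 52.3% higher and 1.34% lower of 93297. For H3K27ac, 4 of 9 and 1 of 4 were higher and 0 lower, beside 30.5% higher and 3.87% lower.

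The marks were also compared within a state. In bins in peaks of both marks with at least 30 counts, 0 of 62 Otx2 and 0 of 4 Fgf5 bins differed in ESCs, beside 0.0692% higher and 0.00973% lower under H3K4me1 over the genome. In RA cells 0 of 13 Otx2 bins differed, beside 0.801% higher and 0.0126% lower, and no Fgf5 bin was covered. A p above the threshold does not show that the marks had equal 5mC. Over whole elements, where each mark draws its counts from different bins, the Fgf5 element chr5:98680342-98686719 had 21.4% under H3K4me1 and 8.81% under H3K27ac in ESC (Fisher's exact adjusted p = 1.97e-07). In RA it had 37.4% and 11.4% (adjusted p = 6.52e-14). The first long Otx2 element had 12.5% and 2.95% in ESC (adjusted p = 1.41e-81) and 30.9% and 21.2% in RA (adjusted p = 1.54e-06). In ESC 3 of 12 Otx2 elements were higher and 1 lower under H3K4me1, and 1 of 5 Fgf5 elements higher, beside 17.5% higher and 5.1% lower of all elements. In RA 2 of 9 and 1 of 5 were higher and 0 lower, beside 22.1% and 1.18%.

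The single bins of the strongest Fgf5 H3K27ac peak, chosen after their values were seen, show where the counts lay. In chr5:98683201-98683400, the bin with the most ESC H3K27ac counts, H3K27ac had 62 counts in ESC and 34 in RA, and H3K4me1 had 42 in ESC and 0 in RA. In chr5:98683001-98683200, the bin with the most RA H3K27ac counts, H3K27ac had 0 of 40 counts methylated in RA (0 to 8.81%) and H3K4me1 5mC was 55.6% of 9 counts. The flank held more 5mC, with 46.2% of 65 H3K4me1 counts in RA at chr5:98684001-98684200 beside 26.7% of 60 in ESC.

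XEN libraries were compared over bins with at least 4 counts, since their files list no others. In the Fgf5 window, occupancy was 17.4 and 23.7 CPM in the libraries labelled H3K4me1 and 42.3 and 46.0 CPM in those labelled H3K27ac. In the Otx2 window it was 76.2 and 83.1 CPM, and 158 and 148 CPM. Both replicates of one label lay apart from both of the other at each locus, and the exact permutation test gave p = 0.333 two-sided, the smallest that 2 against 2 libraries allow. Set beside the same-named mark, the Otx2 level was 296 CPM in ESC and 192 CPM in RA for H3K4me1, and 262 and 82.1 CPM for H3K27ac. The Fgf5 level was 69.1 CPM in ESC and 53.2 CPM in RA for H3K4me1, above both XEN libraries of that label, and 33.6 and 27.2 CPM for H3K27ac, below both XEN libraries of that label. By file name the Fgf5 direction for H3K27ac turned, since the XEN libraries so named held 17.4 and 23.7 CPM. By file name the Otx2 level of H3K27ac in XEN, 76.2 and 83.1 CPM, lay on both sides of that in RA.

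The edgeR tests of XEN occupancy took their spread from a XEN pair, so variation between ESC or RA libraries was not measured. In the first long Otx2 element the libraries labelled H3K4me1 held 14.6 and 21.9 CPM and those labelled H3K27ac 64.7 and 60.4 CPM. Compared with ESC by edgeR's quasi-likelihood test, occupancy was lower under both pairings: by label, log2 fold -2.76 for H3K4me1 (adjusted p = 0.0126) and -1.51 for H3K27ac (adjusted p = 0.000405). By file name it was -0.99 for H3K4me1 (adjusted p = 0.00291) and -3.28 for H3K27ac (adjusted p = 0.000836). The second long element held 46.4 and 42.3 CPM, and 73.2 and 68.7 CPM, and its change from ESC depended on the pairing: -0.92 for H3K4me1 (adjusted p = 0.0296) and 0.70 for H3K27ac (adjusted p = 0.00964) by label, with neither called by file name.

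At the strongest Fgf5 element the libraries labelled H3K4me1 held 2.63 and 4.08 CPM and those labelled H3K27ac 14.9 and 13.9 CPM. Its log2 fold from ESC was -2.67 for H3K4me1 (edgeR adjusted p = 0.0204) and 0.22 for H3K27ac (adjusted p = 0.366; -0.20 with TMM factors) by label, and by file name -0.58 for H3K4me1 (adjusted p = 0.0318) and -1.87 for H3K27ac (adjusted p = 0.0192). Of 15 Fgf5 and 20 Otx2 elements, 2 and 2 were lower and 0 higher than ESC for H3K4me1 by label, beside 5.11% lower and 5.54% higher of all elements. For H3K27ac by label 0 of 14 and 4 of 19 were lower, and 5 and 1 higher, beside 14.4% and 23.4%. Against RA, 0 were called for H3K4me1, beside 0.351% lower and 0.65% higher. At an unadjusted p under 0.05 there were 8, beside 39933 of all 204088 elements. For H3K27ac 5 and 5 were called higher than RA, beside 16.3% higher and 7.27% lower of all elements. Among them were both long Otx2 elements (log2 fold 1.51 and 0.64) and the strongest Fgf5 element (0.75). Scaling by TMM factors left 2 elements higher and 1 lower than RA for H3K27ac, and 3 higher and 7 lower than ESC. Of all 196841 elements it left 16535 higher and 19300 lower than RA, and 38343 higher and 35206 lower than ESC. With TMM factors the second long element was no longer called for either mark against ESC (edgeR adjusted p = 0.0509 and 0.231). The number of calls changed when 1 XEN replicate was left out and the spread came from the XEN pair of the other label. Without either replicate labelled H3K27ac the calls for that mark fell to 1 element against ESC and 0 against RA. Without 1 replicate labelled H3K4me1 they rose, to between 13 and 16 against ESC and between 6 and 8 against RA. Calls over all elements moved the same way. For H3K27ac against ESC, 45990 higher and 28269 lower became 15822 and 8930 without replicate 1, and 15920 and 10097 without replicate 2. For H3K4me1 against ESC, 11299 higher and 10438 lower became 23819 and 24944, and 23093 and 27740. Against RA, 31998 and 14301 became 529 and 2100, and 931 and 2596, for H3K27ac. For H3K4me1 1327 and 716 became 5566 and 15982, and 6341 and 20466. By file name 1 element was higher and 14 lower than ESC for H3K4me1, beside 19.5% and 18.0%, and 4 were lower for H3K27ac, beside 7.13% higher and 5.27% lower. By file name 0 were called against RA for either mark, beside 0.000985% higher and 0.0% lower for H3K4me1 and 0.0788% and 0.267% for H3K27ac. At an unadjusted p under 0.05 by edgeR there were 8 and 3, beside 41542 of 203107 and 20710 of 192858 elements.

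**Figure D5:**
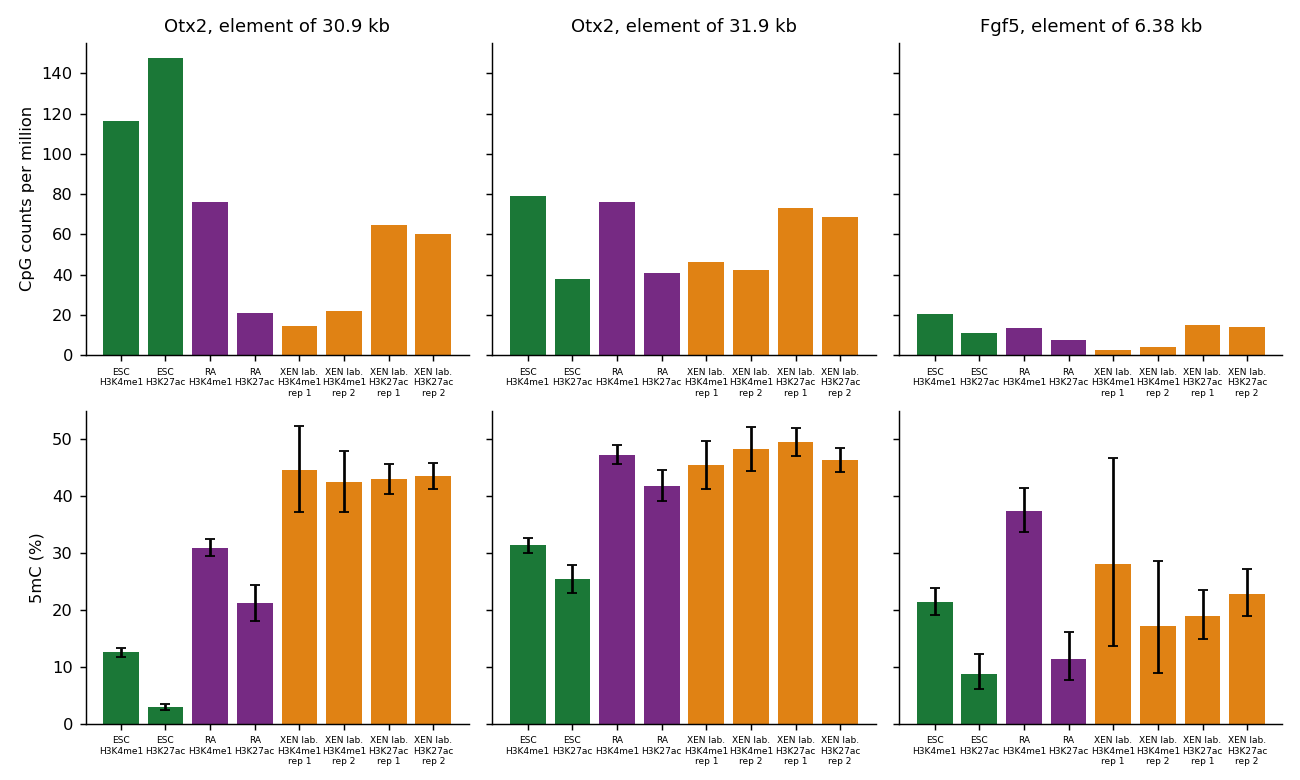
Occupancy in CPM (top) and 5mC in percent with exact 95% binomial intervals (bottom) of the 2 long Otx2 elements and the strongest Fgf5 element, 1 bar per library. In the first Otx2 element ESC bars of 5mC are lowest (12.5% and 2.95%) and the 4 XEN bars lie between 42.4% and 44.6%.

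In the first long Otx2 element 5mC was higher in the XEN than in the ESC libraries whichever way the marks were paired. The edgeR tests took their spread from the XEN pair, so variation between ESC or RA libraries was not measured. 5mC of this element was 44.6% and 42.4% in the libraries labelled H3K4me1, and 43.0% and 43.6% in those labelled H3K27ac. Against ESC the difference in bins with at least 4 counts was 31.1 points for H3K4me1 (edgeR adjusted p = 6.55e-07) and 40.8 points for H3K27ac (adjusted p = 1.73e-47) by label. By file name it was 30.8 points (adjusted p = 7.02e-109) and 41.1 points (adjusted p = 2.41e-07). Against RA it was 12.8 points for H3K4me1 (adjusted p = 0.0156) and 25.4 points for H3K27ac (adjusted p = 2.49e-18) by label, and 12.6 points (adjusted p = 1.61e-11) and 25.7 points (adjusted p = 0.00111) by file name. In the second long element the difference from ESC by label was 15.7 points for H3K4me1 (edgeR adjusted p = 0.00133) and 24.0 points for H3K27ac (adjusted p = 1.20e-15), and that from RA was -0.24 points for H3K4me1 (adjusted p = 0.978) and 7.29 points for H3K27ac (adjusted p = 0.00937). By file name the differences from RA were 0.83 points (edgeR adjusted p = 0.802) and 6.23 points (adjusted p = 0.353). Among covered Otx2 elements 3 of 3 were higher than ESC for H3K4me1 by label, beside 47.3% higher and 11.8% lower of all elements, and 4 of 5 for H3K27ac, beside 71.5% and 0.977%. Against RA 1 of 3 was higher for H3K4me1, beside 5.97% higher and 18.3% lower, and 2 of 5 for H3K27ac, beside 54.4% and 0.309%. By file name 6 of 8 were higher than ESC for H3K4me1, beside 70.2% and 0.867%, and 3 of 3 for H3K27ac, beside 53.8% and 1.46%. By file name 1 of 8 was higher than RA for H3K4me1, beside 25.3% and 0.773%, and 1 of 3 for H3K27ac, beside 21.1% and 0.64%. Several of these shares, such as 4 of 5 and 6 of 8, were near those of all elements.

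At the strongest Fgf5 element, 5mC was 28.1% and 17.2% in the libraries labelled H3K4me1, on 32 and 64 counts, and 18.9% and 22.9% in those labelled H3K27ac. Against ESC H3K4me1 the difference was 1.36 points by label (edgeR adjusted p = 0.978) and -0.39 points by file name (adjusted p = 0.942), neither past the threshold. It was higher than ESC H3K27ac by 14.3 points by label (edgeR adjusted p = 3.35e-06) and by 16.0 points by file name (adjusted p = 0.016). Against RA H3K4me1 the difference was -14.3 points by label (edgeR adjusted p = 0.114, not called) and -16.1 points by file name (adjusted p = 2.06e-05). Against RA H3K27ac it was 9.56 points by label (edgeR adjusted p = 0.0109) and 11.3 points by file name (adjusted p = 0.21, not called).

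Other Fgf5 elements went both ways. At chr5:98608163-98611225, which crosses the window edge, 5mC by file name was higher than ESC H3K4me1 by 33.7 points (edgeR adjusted p = 2.51e-16) and than RA H3K4me1 by 18.7 points (adjusted p = 0.00105). At chr5:98615001-98616507 it was higher than ESC by 15.8 points for H3K4me1 by file name (edgeR adjusted p = 2.50e-06) and by 17.9 points for H3K27ac by label (adjusted p = 1e-07). At chr5:98711223-98714168 the difference from RA H3K27ac by label was -25.9 points (edgeR adjusted p = 0.0171). By edgeR against ESC by label 0 of 1 Fgf5 element was called for H3K4me1 (0 at an unadjusted p under 0.05) and 2 of 3 were higher for H3K27ac, and by file name 2 of 6 and 1 of 1 were higher. Against RA by label 0 of 1 was called for H3K4me1, with 1 at an unadjusted p under 0.05, beside 11813 of all 34716 elements. For H3K27ac by label 2 of 3 were called higher and 1 lower than RA. By file name 1 of 6 was higher and 1 lower than RA for H3K4me1, and 0 of 1 was called for H3K27ac (0 at an unadjusted p under 0.05). The shares of all elements are those given for Otx2. Over the whole windows, XEN 5mC was 64.9% and 57.5% under the label H3K4me1 and 39.9% and 42.7% under H3K27ac at Fgf5, and 49.1%, 50.8%, 48.5% and 46.8% at Otx2.

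Few single bins were covered in XEN. Against ESC by label, 1 of 2 Otx2 bins was higher and 0 lower for H3K4me1, beside 34.2% and 6.52% over the genome, and 6 of 6 were higher for H3K27ac, beside 76.2% higher and 0.623% lower. Against RA 0 of 2 were called for H3K4me1, with 0 at an unadjusted p under 0.05, beside 0.0805% higher and 0.274% lower, and 1 of 6 was higher for H3K27ac, beside 35.2% higher and 0.0919% lower. By file name 18 of 24 Otx2 and 2 of 3 Fgf5 bins were higher than ESC for H3K4me1, beside 72.5% higher and 2.33% lower, which is near the Otx2 share, and 2 of 24 and 1 of 3 were higher than RA, beside 16.2% and 0.271%. For H3K27ac by file name 1 of 2 Otx2 bins was higher than ESC, beside 8.44% higher and 0.691% lower, and 0 of 2 differed from RA, beside 0.0815% and 0.0142%. The largest differences by file name were at chr14:49274401-49274600 (1.55% in ESC and a mean of 79.5% in XEN, edgeR adjusted p = 9.74e-09) and chr14:49273801-49274000 (1.94% and 62.9%, adjusted p = 2.41e-07), both inside the strongest ESC H3K27ac peak of Otx2, and at chr14:49281801-49282000 (0% and 52.4%, adjusted p = 8.59e-07). Between the XEN marks 0 of 3 Otx2 bins differed, with 0 at an unadjusted p under 0.05, beside 0.0137% higher and 1.27% lower under the label H3K4me1.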

How the data were processed

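ChIP-BS-seq libraries of H3K4me1 and H3K27ac were analysed from ESCs, RA cells and XEN cells. Alignment by the authors used Bismark with Bowtie (versions not given in the sources used here). Reads whose CpGs had mixed states were dropped, and the deposited values are counts, not normalized, of CpGs read as methylated or as unmethylated in each bin of 200 bp. The methylated column was taken as the rare one on the mitochondrial genome. The deposited peak lists carry a HOMER score, used here only to rank peaks. Whether ESC and RA files pool repeats was not established.

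5mC was methylated over all counts. Bins needed 30 counts in each library compared. Fisher's exact test (numba) compared ESC with RA and the marks, and edgeR 4.0.16 (quasi-likelihood) in R 4.3.3 compared XEN with the single ESC and RA libraries, with the spread taken from the XEN pair. Both used Benjamini-Hochberg adjustment over all features and were tested on simulated data, where edgeR recovered few of the changed bins of XEN against ESC, so a bin not called there says little. XEN was compared over bins with at least 4 counts. Intervals are Clopper-Pearson and, as amplified reads are not independent molecules, cover counting error only. The same holds for p-values of Fisher's exact test. Between XEN replicates, bin occupancy varied more than by counting error (chi-square per degree of freedom 3.64 for the label H3K4me1, 1.97 for H3K27ac). Groups came from the sample labels. Bins named were the 3 largest called differences per direction and comparison, and the bin with the most counts per mark and state. Elements named were the 4 with most CPM and the 4 with the largest fold per direction over both marks together, each element counted once, with at least 30 counts of the mark in ESC and RA together. Members and lists were chosen with earlier results of these data known. No annotation of mm9 was used, so bins were not assigned to exons or promoters. Input and H3K36me libraries, the single-cell matrices, and other primed or naive genes were not analysed here.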

Additional observations from a re-analysis of the deposited data

Results flagged for a closer look

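At Fgf5 the difference in 5mC between the marks, H3K4me1 minus H3K27ac over the window, was -0.60 points in ESCs, on 1 library per mark and inside the counting intervals of both, 7.01 points in RA cells and 19.9 points in XEN cells. It was singled out because the ESC sign differed from the others, and the difference between states was not tested. The sign depended on which bins were kept: in bins with at least 4 counts, the only ones in the XEN files, 5mC in ESCs was 30.6% under H3K4me1 and 22.4% under H3K27ac, and in RA cells 46.0% and 37.3%, so the sign was positive in all 3 states by label. By file name the XEN sign turns.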

How the results depend on the processing

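Counts below are of member bins or elements called. For RA against ESC under H3K4me1, 54 bins became 23 with at least 60 counts, 13 as whole elements and 1 by edgeR with the XEN spread, which tested 2 Otx2 bins. Under H3K27ac, 1 became 5 with at least 20 counts, 0 when over 20 points was also asked, and 5 as whole elements. Between marks, 0 became 5 elements in ESCs and 3 in RA cells. For H3K27ac occupancy of RA against ESC, 10 elements became 17 tiles of 5 kb. For XEN against ESC, H3K4me1, 1 became 0 with at least 60 counts, 20 by file name, 3 as elements and 8 as elements by file name. For H3K27ac, 6 became 14 with at least 20 counts, 1 with at least 60 and 1 by file name. For XEN against RA, H3K4me1, 0 became 3 by file name, 1 as elements and 3 as elements by file name. For H3K27ac, 1 became 2 with at least 20 counts, 0 with at least 60, 0 by file name and 5 as elements. For XEN occupancy against ESC, 4 H3K4me1 elements became 15 by file name and between 13 and 16 without 1 replicate, and 10 H3K27ac elements became 4 by file name and 1 without either replicate. Against RA, 0 for H3K4me1 became between 6 and 8 without 1 replicate, and 10 for H3K27ac, all higher, became 3 with TMM factors, of which 2 were higher and 1 lower, 0 by file name and 0 without either replicate. Occupancy calls over all elements moved as well, by the numbers given above.

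The RA minus ESC difference in 5mC, in bins with at least 30 counts and as their unweighted mean, was 9.15 and 9.65 points for Fgf5 H3K4me1, 13.6 and 12.0 points for Otx2 H3K4me1, and 21.3 and 21.3 for Otx2 H3K27ac. For Fgf5 H3K27ac it reversed, to -0.184 and -0.098. Bins with at least 30 counts were picked in each library separately, so these differences do not compare the same bins. Where both libraries had that many counts, the median differences given above were smaller for Otx2 H3K27ac. They were larger for H3K4me1 at both loci. Scaled to counts in peaks, log2 occupancy was -0.42 for Fgf5 H3K4me1, -0.44 for Fgf5 H3K27ac and -1.57 for Otx2 H3K27ac, and in bins with at least 4 counts -1.68 for the last. The cause of these changes was not tested. The other 58 values stayed within 1.5 times their count or within their spread. Among them, 10 elements were called for H3K27ac occupancy of XEN against ESC under both scalings, but 6 higher and 4 lower became 3 higher and 7 lower with TMM factors, which moved the median log2 fold of all elements from 0.04 to -0.22.

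XEN replicates of the 2 marks share numbers, but their deviations did not go together (r = -0.009 for 5mC, over 14551 bins). With the replicate block 0 member bins differed between marks, as without it. The locus differences, 19.9 points at Fgf5 and 2.36 at Otx2, are the same with the block by construction. Over all bins 2 were higher and 185 lower between marks, and between 3 and 6 were called, all lower, without 1 replicate. In the fit of 1 mark, leaving out a XEN replicate left no residual degrees of freedom for bin methylation against ESC or RA, so it was not run. A fit of both marks together, as used for occupancy, was not run for bin methylation, nor was the single-cell alternative. ESC and RA had 1 library per mark, so their comparisons have no replicate check.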
